A study of Mus musculus with 45 samples.

Results

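The interval from 77 to 78 Mb of mouse chromosome 1 (genome build mm9), named for the gene Epha4, holds 11 of the 44165 domains of acetylated histone H3 lysine 9 (H3K9ac) that the series defined. The 11 are all domains whose midpoint lies in the interval, and they are called here by the names they carry in the deposited list, peak829 to peak839. Position alone decides which domains belong, but the interval itself was chosen by its H3K9ac values in these libraries, and which comparison led to it is not recorded. All differences below are therefore a description of these libraries. Adjusted p-values, taken from fits over the whole table, set a difference against the spread between libraries and are no independent evidence for the interval.

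H3K9ac was mapped by ChIP-seq (chromatin immunoprecipitation followed by sequencing) in hippocampi of mice that model neurodegeneration, to ask where acetylation differs between diseased and control mice. Mice carrying human tau with the P301S mutation (MAPT P301S) gave 2 libraries at 6 months and 3 at 11 months, and age- and sex-matched wild type (WT) mice gave 3 at each age. All 6-month mice were females and all 11-month mice males, so age and sex cannot be told apart. Double-transgenic CK-p25 females and their CK control littermates gave 3 libraries each at 2 weeks after induction of p25, at an age of 3.5 months, and 3 each at 6 weeks, at 4.5 months. The CK-p25 model switches on p25, a fragment of p35 that activates the kinase Cdk5, in forebrain excitatory neurons. The CK mice carry the driver without p25. The labels do not name the promoter of the tau transgene. The 2 models were probed with different lots of the same antibody, and levels are compared within a model only. The labels do not state that libraries come from separate animals, so p-values measure the spread between these libraries, which may be technical.

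EphA4 is a receptor tyrosine kinase that binds ephrin-A and ephrin-B ligands on neighbouring cells. In the hippocampus it sits on dendritic spines of pyramidal neurons, where ephrin-A3 on astrocytes activates it and spines retract. Its signalling also guides axons during development. H3K9ac is laid down by acetyltransferases such as Gcn5 and PCAF at active promoters and enhancers and is removed by histone deacetylases. Domains that stretch over several kilobases are typical of strongly used genes.

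The Epha4 promoter is shown because the gene gives the interval its name. It is the RefSeq sequence of the 250 bases before the gene's start, at chr1:77515089-77515338 of GRCm38.p6, read 5′ to 3′ on the minus strand. Capitals mark the motifs searched. The GC box is GGGCGG. The CCAAT box lies on the opposite strand, so it appears here as ATTGG. The last is CGTCA, a half-site of the cyclic-AMP response element.
Epha4: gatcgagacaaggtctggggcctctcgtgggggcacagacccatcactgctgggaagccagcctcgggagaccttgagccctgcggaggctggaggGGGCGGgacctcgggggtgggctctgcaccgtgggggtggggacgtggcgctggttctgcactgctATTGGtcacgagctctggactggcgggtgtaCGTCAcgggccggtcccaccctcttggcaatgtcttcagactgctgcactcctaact
This stretch is 66.0% G and C, against a median of 52.4% over 32851 mouse promoters of the same length. It holds 14 CpG dinucleotides, and 70.6% of those promoters hold fewer. Each motif was searched on both strands and matched once, with no overlap between matches. A GC box is present in 32.7% of the promoters, CCAAT in 33.8% and CGTCA in 17.8%, and a match of letters does not show that a factor binds. In GRCm38 the protein-coding neighbours of Epha4 are Slc4a3, an anion exchanger gene, and Pax3, a transcription factor gene of the developing neural tube and neural crest. The domains are on mm9, whose gene annotation was not used here. The promoter was therefore not placed against the domains, and neither the link of the interval to Epha4 nor the markers of hippocampal tissue were checked by gene name. The other Eph receptors and ephrins were not tested for the same reason.

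Libraries of the tau series had 4.10 to 6.18 M reads within domains, and those of the CK-p25 series 0.996 to 4.13 M. The shallowest were CK-p25 replicate 3 (1.31 M) and CK replicate 3 (0.996 M) at 6 weeks. The labels give each library's cross correlation, which reflects how enriched a ChIP is. It was 0.228 ± 0.0263 in tau and 0.313 ± 0.0250 in WT libraries at 11 months (SD, n = 3 each), and the groups did not overlap. The 6-month values were 0.243 ± 0.0164 (n = 2) in tau and 0.245 ± 0.00303 (n = 3) in WT libraries. In the CK-p25 series the mean was 0.167 in CK-p25 and 0.138 in CK libraries at 2 weeks, and 0.131 in CK-p25 and 0.0928 in CK libraries at 6 weeks. Within each group of this series, libraries stood in the same order by cross correlation as by reads within domains. There a fit with cross correlation as a covariate cannot tell enrichment from depth.

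Acetylation in the interval was concentrated in a cluster of 6 domains, peak832 to peak837, within 20736 bp (chr1:77493289-77514024, mm9). The cluster held 94.4% of the interval's reads over all 23 libraries. Its last member, peak837 (chr1:77506684-77514024), is 7341 bp wide, and only 153 of the 44165 domains, itself included, are at least as wide. The median width of all domains is 776 bp. This single domain held 72.3% of the interval's reads on 47.2% of its 15.56 kb of covered length.

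Per length, the level of peak837 averaged 25.56 CPM per kb in the tau series, above 86.3% of all domains. Here CPM are reads scaled to the library's total of reads within domains. The other cluster members ran from 6.42 CPM per kb in peak833 to 8.65 CPM per kb in peak832. The second widest member, peak835 (chr1:77500515-77504209, 3695 bp), had 8.37 CPM per kb. It is followed in width by peak834 (chr1:77498928-77500195, 1268 bp), at 7.12 CPM per kb. Per length, peak837 thus stood well above the other members of the cluster.

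The 5 remaining domains, peak829 to peak831, peak838 and peak839, stand alone and are 147 to 759 bp wide. They held 0 to 40 reads per library, and their mean levels in the tau series were 1.58 to 5.38 CPM. The domains at the edges of the interval are of this kind, with peak829 lying 89.9 kb inside its start and peak839 107 kb inside its end. The nearest domains outside are peak828, 137 kb before the interval at 10.8 CPM in the tau series, and peak840, 307 kb after it at 24.8 CPM.

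Of a library's reads within domains, the share that fell in the interval was small, so counting error matters for single libraries. It ran from 0.0178% (95% Wilson interval 0.0167% to 0.0189%) in tau replicate 1 at 11 months to 0.0334% (0.0300% to 0.0372%) in CK replicate 3 at 6 weeks. These intervals cover counting error only.

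**Figure D1:**
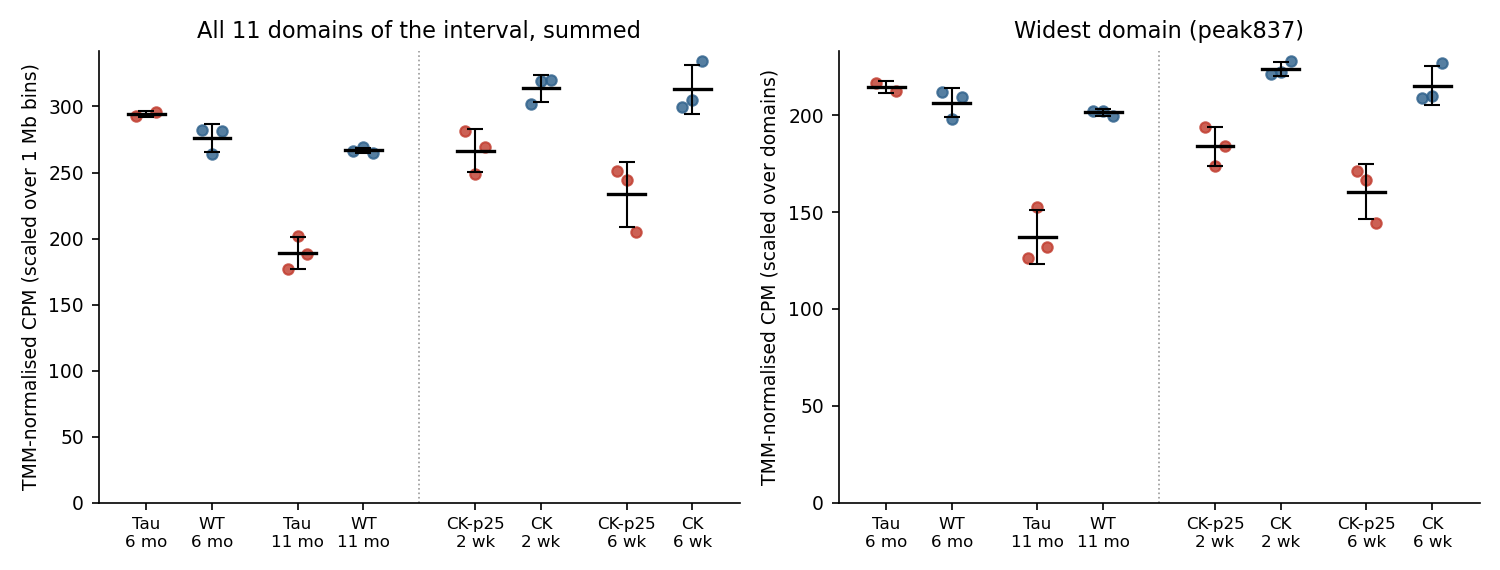
H3K9ac level in each library (points) with the mean and SD of its group (bars), as TMM-normalised CPM, for the 11 domains summed (left) and for peak837 alone (right). Disease-model groups are in red and controls in blue; the tau libraries at 11 months and the CK-p25 libraries at both times lie below all their controls, and the tau libraries at 6 months do not.

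At 11 months, H3K9ac in the interval was lower in tau than in WT mice. The summed level was 177.3, 201.9 and 188.5 CPM in the 3 tau libraries, against 266.0, 269.1 and 265.1 CPM in the 3 WT libraries. All tau libraries lay below all WT libraries, and the WT libraries were close together. The means were 189 ± 12.3 CPM in tau and 267 ± 2.08 CPM in WT mice (SD, n = 3 each), a log2 change of -0.50 ± 0.04 (SE) or -29.3% (edgeR quasi-likelihood test over 2279 bins of 1 Mb, adjusted p = 2.72e-09). In these bulk samples, fewer cells of a type and less acetylation per cell cannot be told apart.

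The widest domain carried most of this fall in reads. In tau mice peak837 had 126.5, 152.7 and 132.1 CPM, against 202.4, 202.4 and 199.5 CPM in WT mice. The highest tau library was thus well below the lowest WT library. The change was -0.56 ± 0.06 in log2 units (SE; edgeR adjusted p over 44105 domains = 3.2e-12).

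The domains peak835 and peak834, beside it in the cluster, fell as well. The level of peak835 was 21.17, 19.87 and 19.50 CPM in tau libraries, against 30.47, 33.64 and 29.91 CPM in WT libraries, which is -0.63 ± 0.11 on the log2 scale (edgeR adjusted p = 2.26e-05). For peak834 the levels were 4.38, 5.82 and 7.18 CPM in tau libraries, against 10.71, 9.72 and 10.40 CPM in WT libraries, which is -0.83 ± 0.21 on the log2 scale (edgeR adjusted p = 0.00262). Neither domain overlapped between the groups. Whether the 3 log2 changes differ from each other was not tested, and the fall of peak834 did not pass without tau replicate 1 (adjusted p = 0.0528).

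These 3 were the members called at an adjusted p under 0.05, out of 11 tested, all lower in tau mice, where 7.56% of all tested domains were called lower. They were also the 3 whose levels did not overlap in that direction, against 13.8% of all domains. Since results of these data were known when the interval was proposed, nothing is read from either count. The same holds for the counts of members in the other comparisons below. The median log2 change over the 11 members was -0.41, beside 0.0063 over all domains. Of the 8 others, 7 had a negative and 1 a positive sign.

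The uncalled members held at most 40 reads in any library, though peak833 (873 bp) and peak831 (759 bp) are near the median width of 776 bp. The largest log2 change in size belonged to peak836 (200 bp), at -1.14 ± 0.62 (SE; edgeR adjusted p = 0.256), which rests on 7, 1 and 2 reads in tau libraries, against 4, 5 and 17 in WT libraries. Leaving out single libraries moved it between -2.17 (without tau replicate 1) and -0.27 (without WT replicate 3). In peak833, which lies 118 bp before peak834, the levels were 1.46, 4.85 and 5.52 CPM in tau libraries, against 4.94, 7.39 and 5.85 CPM in WT libraries, a log2 change of -0.63 (edgeR adjusted p = 0.152). The positive sign was that of peak832, the far end of the cluster, with 5.67 ± 0.70 CPM in tau and 4.85 ± 1.33 CPM in WT mice (SD, n = 3 each; edgeR adjusted p = 0.599).

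Cross correlation moved with these falls, being lower in every tau than in every WT library at 11 months. With it as a covariate the fall of the summed level was -0.64 on the log2 scale (edgeR adjusted p = 0.00031) and that of peak837 -0.71 (adjusted p = 0.000216), while peak835 at -0.70 and peak834 at -1.21, both larger in size than without it, were not called (adjusted p = 0.15 and 0.184). The groups did not overlap in cross correlation, so this fit rests on how levels followed it within groups. It cannot tell cross correlation from genotype at 11 months. The part of cross correlation in the result was not tested further.

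At 6 months no difference between tau and WT mice passed in the interval. The summed level was 292.6 and 295.6 CPM in the 2 tau libraries, against 282.4, 263.8 and 281.5 CPM in the 3 WT libraries. Both tau libraries lay above the WT libraries, but by little, 0.09 ± 0.05 on the log2 scale (edgeR adjusted p = 0.997). For peak837 the levels were 216.7 and 212.3 CPM in tau, against 212.1, 197.9 and 209.3 CPM in WT libraries, a log2 change of 0.06 ± 0.06 (edgeR adjusted p = 1).

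No member was called at 6 months by edgeR or by DESeq2, and 0% of all 44105 domains were called by edgeR, with 1426 at an unadjusted p under 0.05. Among the members 2 had an unadjusted p under 0.05 and a positive sign. The first, peak831, an isolated domain of 759 bp, had 6.32 and 7.87 CPM in tau, against 4.66, 4.29 and 3.43 CPM in WT libraries, which is 0.78 ± 0.30 on the log2 scale (edgeR unadjusted p = 0.0113). The other, peak835, had 38.30 and 43.83 CPM in tau, against 34.11, 32.15 and 37.38 CPM in WT libraries (log2 0.25 ± 0.11, edgeR unadjusted p = 0.0342). The next largest change in size was that of peak829, with 8 and 6 reads in tau, against 10, 12 and 8 in WT libraries (log2 -0.54 ± 0.50). Levels did not overlap in 3 members that were higher and 1 that was lower in tau mice, where 9.63% and 10.1% of all domains did so. The median log2 change was -0.08 over the members and -0.0027 over all domains.

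The effect of tau was more negative at 11 than at 6 months. The difference of the effects (11 months minus 6 months) on the summed level was -0.59 ± 0.07 in log2 units (SE; edgeR adjusted p = 3.4e-07). It was -0.62 ± 0.08 for peak837 (adjusted p = 1.43e-07), -0.87 ± 0.16 for peak835 (0.000102) and -1.05 ± 0.30 for peak834 (0.0226). These 3 of 11 members passed edgeR's test of the difference, where 3.21% of all domains were called in this direction. For peak834 the difference did not pass the DESeq2 Wald test (adjusted p = 0.0813). The 2 contrasts have no library in common, but age and sex cannot be told apart in this difference.

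No such shift was detected in WT mice alone. Their summed level was 267 ± 2.08 CPM at 11 months and 276 ± 10.5 CPM at 6 months (SD, n = 3 each), which is -0.05 ± 0.04 on the log2 scale (edgeR adjusted p = 0.536). No member was called between the WT ages by edgeR or by DESeq2, none had an unadjusted p under 0.05, and 1.45% of all domains were called by edgeR in either direction. The level of the interval was thus in the order tau at 6 months, WT at 6 months, WT at 11 months and tau at 11 months, and only the step between the last 2 passed edgeR's test. The tau and WT libraries at 6 months did not overlap, but their difference did not pass.

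**Figure D2:**
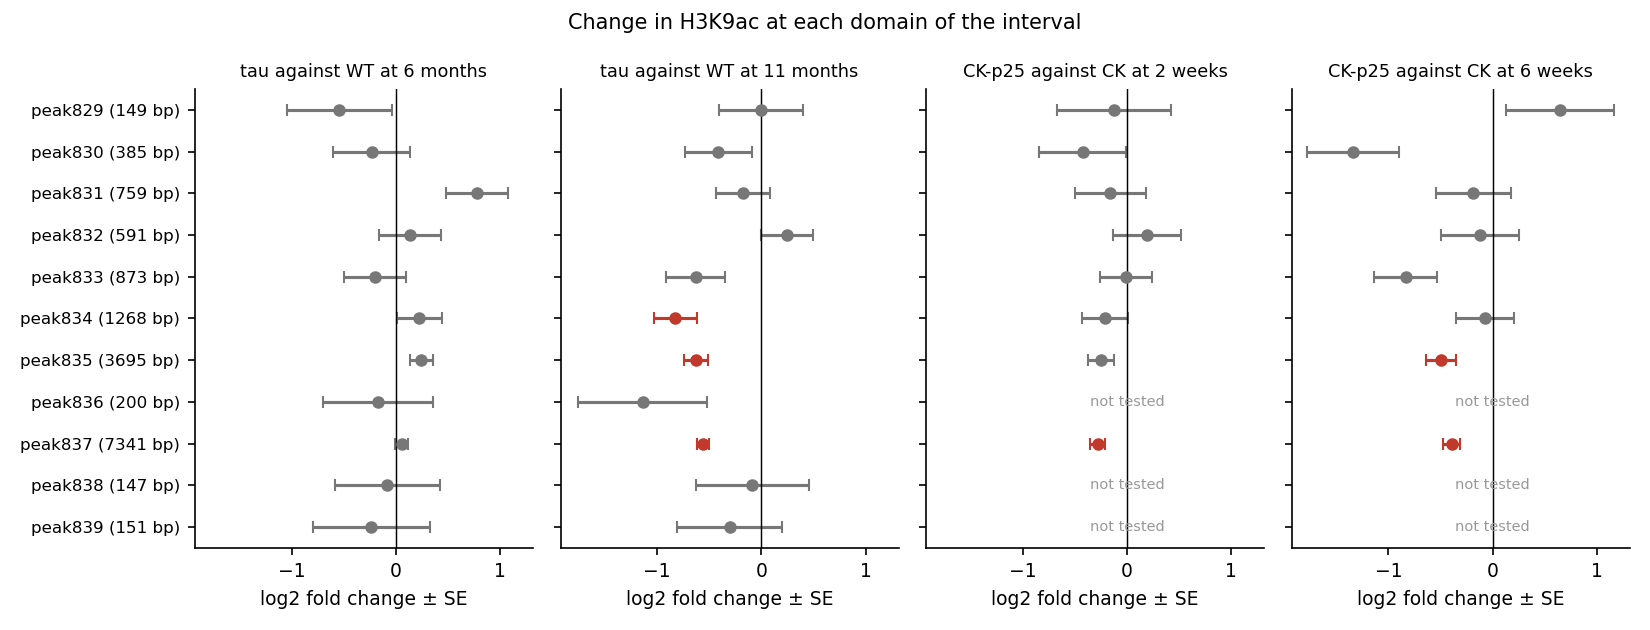
Log2 fold change of H3K9ac (points) with its SE (bars) for each of the 11 domains, in order of position, in the 4 comparisons of a disease model with its control; red marks an adjusted p under 0.05. The called domains are peak834, peak835 and peak837 at 11 months, peak837 at 2 weeks, and peak835 and peak837 at 6 weeks, and the wide error bars belong to domains of few reads.

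In CK-p25 mice H3K9ac in the interval was lower than in CK mice at 2 weeks after induction. The summed level was 281.5, 249.0 and 269.0 CPM in CK-p25 libraries, against 301.8, 319.6 and 319.7 CPM in CK libraries, with no overlap. The log2 change was -0.24 ± 0.06 (SE; edgeR adjusted p over 2266 bins = 0.0247), or -15.1%. For peak837 the levels were 193.7, 173.7 and 184.2 CPM in CK-p25, against 221.4, 222.4 and 228.0 CPM in CK libraries, which is -0.28 ± 0.07 on the log2 scale (edgeR adjusted p = 0.0141).

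At 2 weeks peak837 was the 1 member called, of the 8 that passed the filter on low counts, where 0.613% of all 38193 tested domains were called lower. It was also the 1 member whose levels did not overlap, against 7.45% of all domains. Since peak836, peak838 and peak839 did not pass this filter, counts in the CK-p25 series cover 8 of 11 members. The second widest member, peak835, had 40.09, 35.25 and 38.44 CPM in CK-p25, against 34.35, 50.18 and 49.15 CPM in CK libraries, and CK replicate 1 lay below all CK-p25 libraries (log2 -0.25 ± 0.12, edgeR adjusted p = 0.472). The largest change in size was that of peak830, an isolated domain of 385 bp with 10, 14 and 6 reads in CK-p25, against 10, 13 and 8 in CK libraries (log2 -0.43 ± 0.42, edgeR adjusted p = 0.817). The call at 2 weeks is close to its limit, with an adjusted p for peak837 of 0.0604 in the DESeq2 Wald test. Leaving out single libraries gave log2 changes of -0.32 to -0.24 and an adjusted p of 0.00998 to 0.218, and the call was lost when CK-p25 replicate 2, or CK replicate 2 or 3, was left out.

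At 6 weeks after induction the interval was again lower in CK-p25 mice. The summed level was 251.1, 244.0 and 205.1 CPM in CK-p25 libraries, against 299.7, 304.9 and 334.3 CPM in CK libraries. The groups did not overlap, and the shallowest library of each group was its most extreme. The log2 change was -0.37 ± 0.07 (SE; edgeR adjusted p = 0.000914), or -22.9%. Without both shallow libraries it was -0.28 (adjusted p = 0.0217).

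Of the cluster, peak837 and peak835 were called at 6 weeks. For peak837 the levels were 171.0, 166.3 and 144.3 CPM in CK-p25, against 209.1, 210.0 and 226.8 CPM in CK libraries, which is -0.39 ± 0.08 on the log2 scale (edgeR adjusted p = 0.000823). For peak835 they were 34.39, 39.02 and 29.01 CPM in CK-p25, against 45.79, 50.05 and 57.72 CPM in CK libraries, which is -0.50 ± 0.14 on the log2 scale (edgeR adjusted p = 0.0307). Without both shallow libraries the changes of these domains were -0.31 and -0.38, and neither was called (adjusted p = 0.0521 and 0.313). The call of peak835 was also lost in the DESeq2 Wald test (log2 -0.52, adjusted p = 0.0957) and with cross correlation as a covariate (-0.53, 0.0528). It was lost when any of 5 single libraries was left out (adjusted p 0.05 to 0.178), with log2 changes of -0.59 to -0.43 over all single libraries left out.

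These 2 of 8 tested members stand beside 1.33% of all domains called lower at 6 weeks. Levels did not overlap in 3 members, all lower in CK-p25 mice, where 8.49% of all domains were so. The third was peak830, with 14, 7 and 0 reads in CK-p25, against 18, 9 and 8 in CK libraries (log2 -1.34 ± 0.44, edgeR adjusted p = 0.0861). The 0 belongs to the shallow CK-p25 replicate 3, where it allows a level of up to 2.29 CPM, taking 3 reads as the limit. Next in size was peak833, with 7.21, 5.29 and 3.05 CPM in CK-p25, against 12.32, 7.15 and 10.13 CPM in CK libraries (log2 -0.83 ± 0.30, edgeR adjusted p = 0.14). The level of peak834, called in 11-month tau mice, was 11.78, 8.93 and 4.58 CPM in CK-p25, against 7.90, 12.35 and 12.15 CPM in CK libraries, which overlap (log2 -0.07 ± 0.28, edgeR adjusted p = 0.96). The difference between the models at this domain was not tested.

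The median log2 change over the 8 tested members was -0.19 at 2 weeks and -0.29 at 6 weeks, beside -0.0035 and -0.0020 over all domains, and 7 of 8 had a negative sign at each time. The effect of p25 on the summed level was -0.14 ± 0.09 more negative at 6 than at 2 weeks on the log2 scale, which did not pass (SE; edgeR adjusted p = 0.786). No member passed edgeR's or DESeq2's test of this difference, with 1 at an unadjusted p under 0.05 in edgeR and 0.00524% of all domains called. In CK mice alone the summed level was 313 ± 18.6 CPM at 6 weeks and 314 ± 10.3 CPM at 2 weeks (SD, n = 3 each; log2 -0.02 ± 0.06, edgeR adjusted p = 0.935). No member was called there by edgeR or DESeq2, none had an unadjusted p under 0.05, and edgeR called 0.00262% of all domains.

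**Figure D3:**
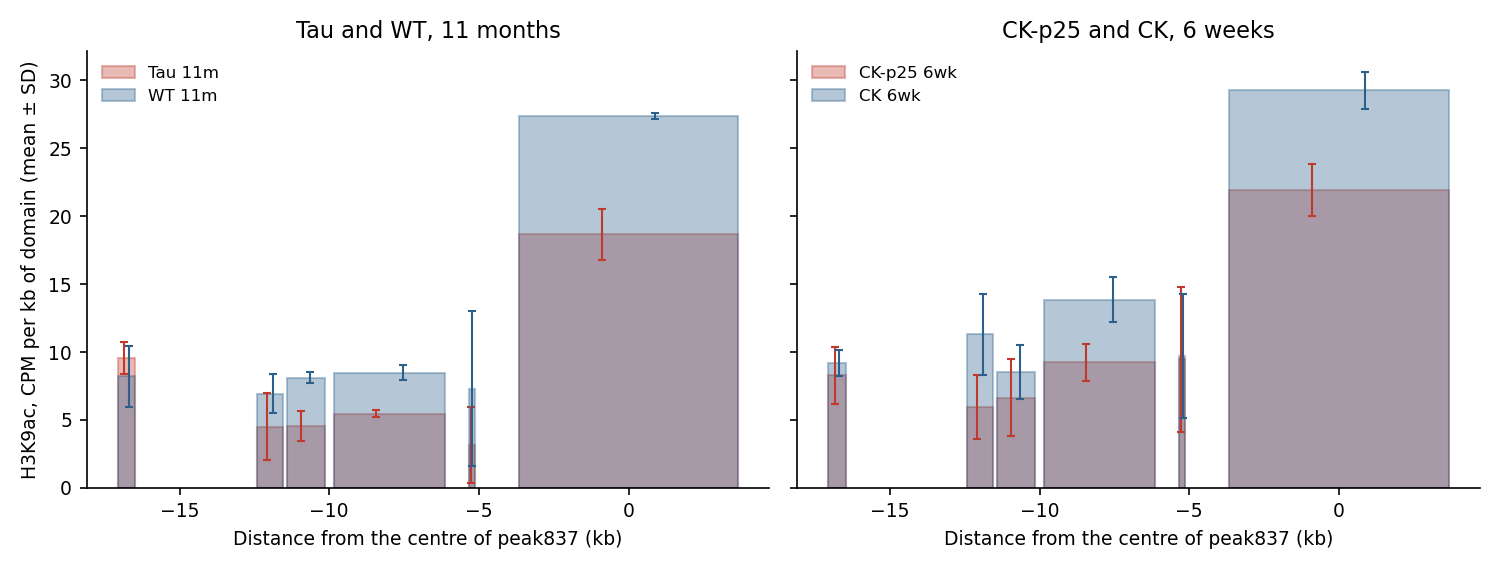
H3K9ac level per length (CPM per kb of domain, mean with SD, n = 3 each) along the cluster of 6 domains, drawn to scale against the distance from the centre of peak837, for tau and WT mice at 11 months (left) and CK-p25 and CK mice at 6 weeks (right). The disease-model mean lies below the control mean across peak833 to peak835 and peak837 in both panels, and above it in peak832 at 11 months only. The levels of peak833 in both panels, and of peak834 at 6 weeks (fitted log2 change -0.07 ± 0.28, SE), overlapped between the groups and were not called.

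Reads outside peak837 were also lower in the interval, though not in each of its domains. With the reads of peak837 left out, the summed level of the 10 other members, isolated domains included, was lower in tau mice at 11 months (log2 -0.44, edgeR adjusted p = 5.13e-05) and in CK-p25 mice at 6 weeks (-0.40, adjusted p = 0.0189). At 2 weeks it was not past the threshold (-0.17, adjusted p = 0.391). Within the cluster peak832 was at 0.25 at 11 months, and peak832 and peak834 were at -0.12 and -0.07 at 6 weeks, none of them called. The share of the interval's reads that lay in peak837 was 73.8% ± 1.93 in tau and 74.7% ± 0.53 in WT mice at 11 months (SD, n = 3 each; two-sided exact permutation test, p = 0.4). It was 69.6% ± 1.32 in CK-p25 and 68.3% ± 1.20 in CK mice at 6 weeks (SD, n = 3 each; exact permutation p = 0.3). At 2 weeks it was 69.3% ± 0.99 in CK-p25 and 70.9% ± 1.67 in CK mice (SD, n = 3 each; exact permutation p = 0.3), and at 6 months 72.7% ± 1.05 in tau (n = 2) and 74.3% ± 0.38 in WT mice (n = 3; exact permutation p = 0.2). All 4 adjusted values were 0.4. Only at 6 months did the shares not overlap, at 73.49% and 72.01% in tau, against 74.53%, 74.44% and 73.84% in WT libraries. With so few libraries no unadjusted value could fall below 0.1. At 6 months even shares with no overlap gave an exact permutation p of 0.2. All these shares are therefore given as levels, and the tests show nothing about whether they differ.

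The 1 Mb bins on either side of the interval were not called in any of these comparisons. The bin from 76 to 77 Mb, with 4 domains, was at -0.13 ± 0.13 (log2, SE) in tau mice at 11 months (edgeR adjusted p = 0.416), -0.06 ± 0.15 in CK-p25 mice at 2 weeks (0.885) and -0.16 ± 0.17 at 6 weeks (0.588). The bin from 78 to 79 Mb, with 13 domains, was at 0.01 ± 0.04 (0.822), -0.03 ± 0.05 (0.831) and 0.02 ± 0.05 (0.89) in the same comparisons. None of the domains tested in these bins was called by edgeR in any of the 4 comparisons of a disease model with its control. The difference between the interval and its neighbours was not itself tested. Further out, called bins had smaller changes. In tau mice at 11 months the bins from 72 to 73 Mb (-0.09, edgeR adjusted p = 0.0147) and from 75 to 76 Mb (-0.08, 0.000767) were lower and that from 74 to 75 Mb (0.06, 0.0141) was higher. In CK-p25 mice at 6 weeks the bin from 74 to 75 Mb was higher (0.10, 0.0329), and the bin from 81 to 82 Mb, with 2 domains, was at -0.37 ± 0.15 without being called (0.108). These bins were named after their values were seen.

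**Figure D4:**
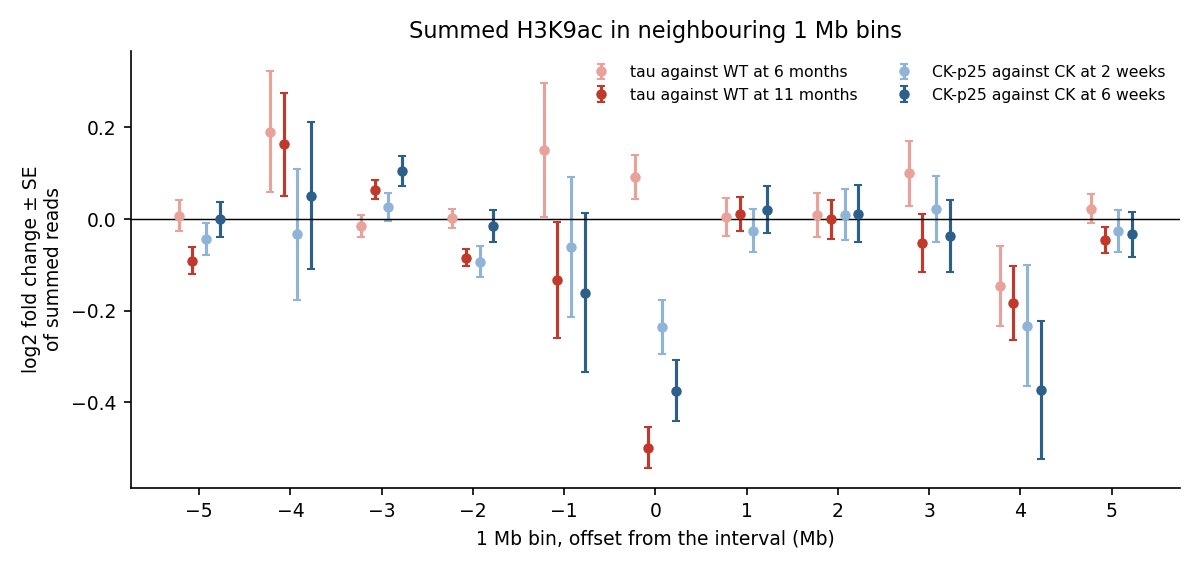
Log2 fold change of the reads summed over each 1 Mb bin (points) with its SE (bars), from 5 bins before to 5 bins after the interval at 0, in the 4 comparisons. The interval has the most negative value of the 11 bins in tau mice at 11 months (-0.50), and the adjacent bins lie between -0.16 and 0.15 over the 4 comparisons.

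Set beside the whole genome, falls of this size were uncommon but not rare. Of 2279 bins, 93 had a more negative log2 change than the interval in tau mice at 11 months, where 23.3% of bins were called lower. At 2 weeks 77 of 2266 bins, and at 6 weeks 72, were more negative in CK-p25 mice, where 1.06% and 6.31% were called lower. In the difference of the tau effects 60 bins were more negative, with 14.5% called lower. This ranking by log2 change takes no account of the spread in each bin. By unadjusted p in edgeR, in either direction, 3 bins had a smaller value at 11 months, 38 at 2 weeks and 11 at 6 weeks. In the difference of the tau effects 3 did. The interval was chosen by its values, so these ranks are a description.

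Wide domains as a class tended to be lower in the disease models, and peak837 lay toward the negative end of that class. Of the 153 domains at least as wide, 52.3% were called lower in tau mice at 11 months, 10.5% in CK-p25 mice at 2 weeks and 20.3% at 6 weeks. Their median log2 changes were -0.18, -0.08 and -0.10, against -0.56, -0.28 and -0.39 for peak837. A more negative change than that of peak837 was found in 24, 13 and 11 of them. In the difference of the tau effects 36.6% of these wide domains were called lower and 21 were more negative than peak837. At 6 months their median was 0.02 and peak837 was at 0.06.

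**Figure D5:**
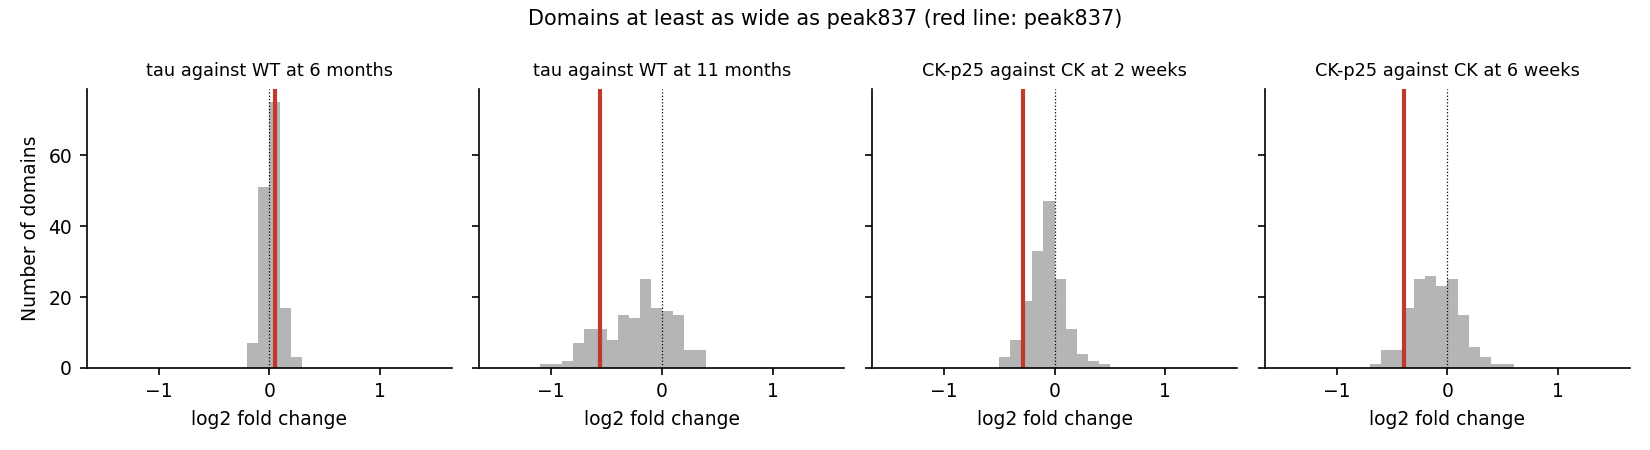
Number of domains by log2 fold change among the 153 domains at least as wide as peak837, in the 4 comparisons, with peak837 as the red line. In tau mice at 11 months and in CK-p25 mice at both times the line lies below the lower quartile. In tau mice at 6 months it lies between the median and the upper quartile.

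Other bins of the genome followed the interval closely over the 23 libraries. The 3 most alike, by the Pearson correlation of log2 CPM centred within each mouse model, were on chromosome 12. They ran from 118 to 119 Mb (r = 0.974, 20 domains), from 30 to 31 Mb (r = 0.964, 32 domains) and from 14 to 15 Mb (r = 0.961, 1 domain). Over 2265 bins the median r was -0.03 and the 95th percentile 0.866, while the adjacent bins had 0.50 before and 0.147 after the interval. These values are a description, since the libraries share their groups, depth and enrichment. In the most alike bin the log2 changes were -0.37 in tau mice at 11 months, -0.16 in CK-p25 mice at 2 weeks and -0.24 at 6 weeks, each smaller in size than that of the interval. In the second they were -0.47, -0.12 and -0.37. In the third, a single domain, they were -0.64, -0.20 and -0.46, larger in size than those of the interval at 11 months and at 6 weeks.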

How the data were processed

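The members and lists were chosen with earlier results of these data known. The authors deposited raw read counts, with no normalization, for a common set of domains in 23 H3K9ac libraries. The 22 input libraries have no column in that table. The genome build mm9 and the tools BWA, Picard and MACS2 are named, per the submitters' processing notes, with no role or setting. Whether peaks came from single or pooled libraries is not stated there. Single-end reads, per the labels' protocols, carry no molecular identifiers.

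Counts were tested with edgeR 4.0.16 (R 4.3.3): quasi-likelihood F test with robust dispersions, TMM scaling, filterByExpr and 1 mean per group, two-sided, Benjamini-Hochberg adjustment over all domains tested and a threshold of 0.05. Each mouse model was fitted apart. Sums of domain counts by 1 Mb bin were tested likewise. The standard error (SE) is the absolute log2 change divided by F's square root. CPM are TMM-scaled. Shares were compared by exact permutation (SciPy 1.17.1), and motifs counted in Python 3.11.15. For the bin correlations 0.5 CPM was added before the log. The fits were tested on simulated counts.

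Named domains are those called in a comparison of a disease model with its control, the 3 widest, the 3 with most CPM, and the 2 with the largest change per comparison. After their values were seen, peak832 and the bins beyond the adjacent ones were added. All 22 replicate pairs differed beyond sampling noise (chi-square per degree of freedom 1.10 to 1.88). Every count column was matched to a library. Alternatives were another scaling, DESeq2 1.42.0, no filter, a stricter threshold, a block, a covariate, other windows, the compared groups alone and each library left out.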

Additional observations from a re-analysis of the deposited data

Results flagged for a closer look

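The effect of tau on H3K9ac differed between 11 and 6 months when edgeR tested that difference directly, in the interval as a whole and in 3 of its domains. The difference (11 months minus 6 months) was -0.59 on the log2 scale for the summed level, -0.62 for peak837, -0.87 for peak835 and -1.05 for peak834. Of all domains 3.21% were called lower in this difference, and nothing is read from the count of 3. The call of peak834 was lost in the DESeq2 Wald test and in 5 of 11 fits without a single library. Both ages use separate libraries, and age and sex cannot be told apart. At 11 months cross correlation was also lower in all tau than in all WT libraries, so it and genotype cannot be told apart there. With cross correlation as a covariate, the difference was -0.72 for the summed level (edgeR adjusted p = 0.000171) and 1 of the 3 domains, peak837, passed. The share of all domains called in that fit is not given here. The others were at -0.94 (peak835, adjusted p = 0.0595) and -1.43 (peak834, 0.175).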

How the results depend on the processing

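Direction and call were kept by the summed level in tau mice at 11 months and in CK-p25 mice at 6 weeks, and by its difference between tau ages, under every alternative run. The main fits used no pairing. Deviations of same-numbered libraries from their group means had correlations of -0.022 to 0.0516 in 17 pairs, none over 0.1. Counting noise in domains of few reads lowers such values, so they cannot exclude pairing. A replicate block changed no count of called members (3, 1 and 2 at 11 months, 2 weeks and 6 weeks) and gave sums of -0.50, -0.24 and -0.37. Counts of called members moved as follows. In the main fits 7.56% of all domains were called lower at 11 months and 3.21% in the difference between tau ages. At 2 weeks 0.613% and at 6 weeks 1.33% were. The shares of all domains under each alternative are not given here, so nothing is read from how these counts moved. With cross correlation as a covariate there was 1 at 11 months, 1 in the difference between tau ages and 1 at 6 weeks. DESeq2 and a threshold of 0.01 each gave 0 at 2 weeks and 1 at 6 weeks, and leaving out both shallow libraries gave 0 at 6 weeks. Leaving out single libraries gave 2 to 4 at 11 months, 2 to 3 in the difference between tau ages, 0 to 1 at 2 weeks and 1 to 2 at 6 weeks. It lost the call of peak834 in the difference between tau ages in 5 of 11 cases (log2 -1.27 to -0.81). The summed level at 2 weeks lost its call with DESeq2 (log2 -0.24, adjusted p = 0.0543), a window wider by 0.5 Mb at both ends (-0.16, 0.0738), without peak837 (-0.17, 0.391) and when replicate 2 or 3 of either group was left out (range over single libraries -0.28 to -0.19). Signs turned only in differences that were not called. The summed level between WT ages became 0.061 and peak837 there 0.085 with the covariate. Between CK times the sum became 0.014 with the covariate, 0.079 without peak837 and -0.057 to 0.016 without single libraries, and peak835 there -0.022 to 0.26. At 6 weeks peak834 became 0.16 without both shallow libraries. Without single libraries it ranged from -0.41 to 0.079 at 6 weeks, from -0.014 to 0.45 at 6 months and from -0.20 to 0.29 in the difference between CK-p25 times. The cause of these shifts was not tested, apart from the fewer libraries or reads that an alternative leaves. Depth limits the isolated domains, with 0 to 40 reads per library, and the CK-p25 series, where 3 members were not tested.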
